A study of Mus musculus with 9 samples.

Results

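PSC4 and PSC5 are a pair of mouse pancreatic stellate cell lines, and the comparison described here sets the 3 RNA-seq libraries of PSC4 (replicate 1 of each medium) against the 6 libraries of PSC5 (replicates 2 and 3), out of 9 in all. The labels give every sample as wild-type stellate cells from the pancreata of C57BL/6J mice. Replicate 2 is labelled PSC5-I and replicate 3 PSC5-II, 2 cultures under the name of 1 line. Each of the 3 cultures was kept for 4 days in MG-CM, a control medium of DMEM with 5% FBS, in CM, medium conditioned by pancreatic tumour organoids, or in CM-JAKi, the same CM with 500 nM AZD1480, an inhibitor of JAK kinases. Every replicate number had its own CM source, so in CM and CM-JAKi the line and the source of the medium changed together. Only the MG-CM libraries compare the lines without tumour medium.

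Stellate cells are the mesenchymal cells of the pancreas that store vitamin A at rest. In injury and around tumours they turn into fibroblasts that contract, lay down matrix and secrete cytokines. Fibroblasts in culture keep a memory of where in the body they arose, carried by HOX genes and other homeobox, GATA, forkhead and T-box factors. HOX genes lie in 4 clusters, and the genes at the high-numbered end of a cluster are used in the most caudal and distal parts of the body. Genes of any function that differed between the lines in every medium are called line-identity genes here. The name does not mean that a gene marks a position in the body.

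The libraries held 25625806 to 32466018 estimated counts, and 13613 genes passed the filter on low counts, 12977 of them on autosomes. In a principal component analysis the first component (48.8% of the variance) set the CM libraries apart, and on the second (19.7%) PSC4 lay highest within each medium. Both lines showed the stellate and fibroblast markers: the summed level of the 11 markers was 6610 to 8980 CPM, counts scaled to library size, in PSC4 and 5750 to 8570 CPM in PSC5. Desmin (Des), a marker of stellate cells, was low in both, at 0.923 to 1.01 CPM in PSC4 and 2.01 to 3.32 CPM in PSC5. Acinar and endocrine markers summed to at most 0.164 CPM in any library. Ptprc, the pan-leukocyte marker, had 4 counts over all 9 libraries, but Cd68 had 471, Csf1r 390 and Lyz2 82. Ductal markers summed to 1.74 to 5.79 CPM in PSC4 and 3.94 to 26.4 CPM in PSC5. Of these, Krt19, a line-identity gene, had 0.765 to 4.4 CPM and 1.95 to 25.1 CPM. A wider list of ductal and epithelial markers summed to 31.7 to 53.4 CPM in PSC4 and 37.0 to 46.6 CPM in PSC5. Of its 7 genes tested, 2 were higher and 1 lower in PSC4 by the test given below (42.9%, against 20.8% of all genes). Mesothelial markers summed to 2.64 to 6.50 CPM in PSC4 and 4.74 to 69.1 CPM in PSC5, of which Msln alone had 1.15 to 5.91 CPM and 4.23 to 67.1 CPM. Xist, Y-linked genes and H19 were not analysed here.

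Across the 3 media, 2700 of the 12977 autosomal genes differed between the lines (20.8%, edgeR quasi-likelihood test with medium as a block, Benjamini-Hochberg adjusted p under 0.05). Of these, 1309 were higher in PSC4 (10.1%) and 1391 were lower (10.7%), and 307 and 229 of them by at least 2-fold. The same test between PSC5-I and PSC5-II called 1 gene (0.00771%), the matricellular gene Sparcl1, while 606 genes higher and 488 lower in PSC5-I had an unadjusted p under 0.05 and DESeq2 called 90. The median absolute log2 difference was 0.183 between the lines and 0.103 between the PSC5 cultures. With 1 culture of PSC4, p-values measure the spread between these libraries and not between cultures of a line, and bulk RNA cannot tell fewer cells of a kind from less RNA per cell. Leaving out 1 library at a time called 830 (without CM-JAKi replicate 1) to 2844 genes (without CM replicate 1), with 1443 without MG-CM replicate 1 and 1780 without CM-JAKi replicate 2, without the PSC5-II culture 379 and without PSC5-I 585. Summing the counts of each culture over the media gave 961.

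Within single media the same lines were compared with 1 PSC4 library each. In MG-CM 163 genes differed (1.26%; 104 higher and 59 lower in PSC4), in CM 794 (6.12%; 312 and 482) and in CM-JAKi 515 (3.97%; 303 and 212). The MG-CM count rested on both PSC5 libraries: it was 0 without MG-CM replicate 2, where 1 PSC5 library faced 1 PSC4 library, and 4 without MG-CM replicate 3. DESeq2 called 834 there, 428 higher and 406 lower. In CM, scaling by library size alone gave 212 higher and 539 lower. In CM-JAKi it was 218 without replicate 2 and 64 without replicate 3. Whether more genes differ in CM than in MG-CM was not tested. Of the 2700 genes called over all media, 2685 had the same sign in MG-CM as in CM and 2691 the same sign in MG-CM as in CM-JAKi, signs that the joint call favours. Over all 12977 genes, the line difference in MG-CM had a Pearson correlation of 0.43 with that in CM and 0.665 with that in CM-JAKi. Between CM and CM-JAKi it was 0.493.

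Line-identity genes were those called over all media in which the PSC4 library stood at least 2-fold above, or at least 2-fold below, both PSC5 libraries of every medium. There were 154: 68 were higher in PSC4 (0.524% of genes tested, median log2 difference 2.22) and 86 were lower (0.663%, median -2.33). Between PSC5-I and PSC5-II the same genes had a median absolute log2 difference of 0.377 and 0.269, and Sparcl1 alone was called there (1.84 ± 0.14). The rule favours genes with little difference between PSC5-I and PSC5-II, so these values are no independent measure. For every line-identity gene named below, the rule also fixes that PSC4 is the highest or the lowest in each medium. Of the 154, 21 of the higher and 25 of the lower genes were also called in MG-CM alone. With 1 PSC4 library left out, so that 2 media had to meet the rule, it gave 241 genes without MG-CM replicate 1, 276 without CM replicate 1 and 166 without CM-JAKi replicate 1. The plot of gene levels shows 8 from each side.

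**Figure D1:**
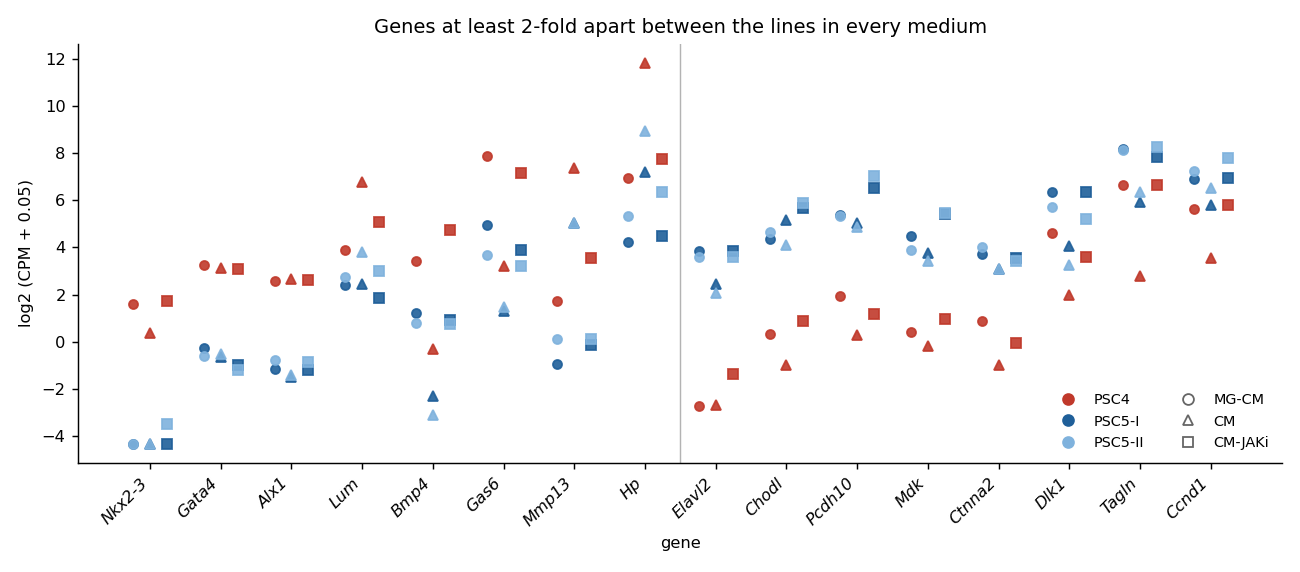
Level of 16 line-identity genes, as log2 of CPM plus 0.05, in each of the 9 libraries, with colour for the culture and shape for the medium. In every medium the PSC4 point lies above both PSC5 points for the 8 genes left of the grey line and below both for the 8 genes right of it. The rule that chose these genes requires this order.

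Among the genes that PSC4 expressed and PSC5 nearly lacked were 3 transcription factors of embryonic mesenchyme. Gata4, a zinc finger factor of heart and visceral mesenchyme, stood at 9.43, 8.66 and 8.4 CPM in PSC4 (MG-CM, CM and CM-JAKi), 0.778, 0.589 and 0.449 CPM in PSC5-I and 0.606, 0.656 and 0.387 CPM in PSC5-II, with every PSC4 value above every PSC5 value. The log2 difference, PSC4 minus PSC5, was 3.94 ± 0.16 (SE, adjusted p = 5.2e-05). Alx1, a homeobox gene of craniofacial mesenchyme, had 5.9 CPM in PSC4 against 0.406 and 0.53 in PSC5 in MG-CM, 6.22 against 0.31 and 0.328 in CM, and 6.13 against 0.389 and 0.503 in CM-JAKi, without overlap between the lines (log2 difference 3.9 ± 0.18 SE, adjusted p = 5.2e-05). These 2 were the only autosomal genes below 1 CPM in every PSC5 library and at least 5 CPM in every PSC4 library, and no gene showed the converse. Nkx2-3, a homeobox gene of gut and spleen mesenchyme, had 229 counts in PSC4 and 1 count in PSC5. The ratio of these counts per depth was 451, with a 95% counting interval from 80.1 to 17900.

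HOX genes differed between the lines at the high-numbered end of the A and C clusters and no gene at their low-numbered end was called. Of 39 HOX genes listed, 30 were tested; 10 were higher and 5 lower in PSC4 (50% called, against 20.8% of all genes), and 7 of the 10 were line-identity genes. Of the genes from Hoxa2 to Hoxa9, 7 were tested and none was called, with log2 differences from -0.03 in Hoxa6 to 0.35 in Hoxa2. Beside them, Hoxa10 was called at 0.47 ± 0.13 (SE, adjusted p = 0.037), Hoxa11 at 2.72 ± 0.34 (SE, adjusted p = 0.0029) and Hoxa13 at 3.65 ± 0.29 (SE, adjusted p = 0.00066). Hoxa11 stood at 9.74, 8.48 and 11 CPM in PSC4 (MG-CM, CM and CM-JAKi), 1.66, 2.85 and 1.65 CPM in PSC5-I and 0.834, 1.18 and 0.851 CPM in PSC5-II, without overlap between the lines. Hoxa13 had 0.695 to 1.51 CPM in PSC4 and 0.0758 to 0.102 CPM in PSC5. No PSC5 library reached a PSC4 library in either gene. PSC5-I was the higher of the PSC5 cultures for Hoxa11 in each medium.

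In the C cluster, Hoxc4, Hoxc5 and Hoxc6 had no call (-0.45, 0.19 and 0.03), while the 6 genes from Hoxc8 to Hoxc13 were all higher in PSC4. Hoxc8 and Hoxc9 differed by 2.98 ± 0.48 and 1.11 ± 0.2 (adjusted p = 0.0058 and 0.0088). Hoxc8 had only 50 counts in PSC4 and 12 in PSC5, with at most 0.708 CPM in any library. Hoxc13 stood at 3.84 CPM in PSC4 against 1.18 and 0.834 in PSC5 in MG-CM, 1.29 against 0.248 and 0.361 in CM, and 2.74 against 0.419 and 0.89 in CM-JAKi, with every PSC4 value above every PSC5 value, a log2 difference of 2.02 ± 0.25 (SE, adjusted p = 0.0025). The genes between were near the limit of detection in PSC5: Hoxc10 had 43 counts in PSC4 and 4 in PSC5, Hoxc11 65 and 1, and Hoxc12 113 and 2. For Hoxc11 the ratio per depth was 128 (95% counting interval 22.2 to 5130) and for Hoxc12 111 (30.1 to 930). At under 2 CPM in every library these are low levels in PSC4 too. Reads shared between neighbouring or similar HOX transcripts were divided in the authors' estimated counts, and that division was not examined.

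Called genes of the B cluster were lower in PSC4, and by less. Of 9 genes tested, Hoxb2, Hoxb4, Hoxb5, Hoxb6 and Hoxb9 were lower in PSC4, at -0.55, -0.45, -0.49, -0.4 and -0.53 on the log2 scale, and Hoxb3, Hoxb7, Hoxb8 and Hoxb13 had no call. The calls of Hoxb4 and Hoxb5 were lost in 8 and 9 of 20 alternative settings. Hoxb9, the firmest of them, had 94.5, 83.3 and 80.8 CPM in PSC4 (MG-CM, CM and CM-JAKi), 146, 113 and 133 CPM in PSC5-I and 135, 106 and 118 CPM in PSC5-II, with every PSC4 value below every PSC5 value (adjusted p = 0.003). The cluster lies on chromosome 11, whose genes as a whole had a median difference of -0.253. Without CM replicate 1, 10 HOX genes were still called higher but only 2 lower. Hoxd8, the single gene of the D cluster tested, was higher in PSC4 by 1.41 ± 0.31 (SE, adjusted p = 0.017).

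**Figure D2:**
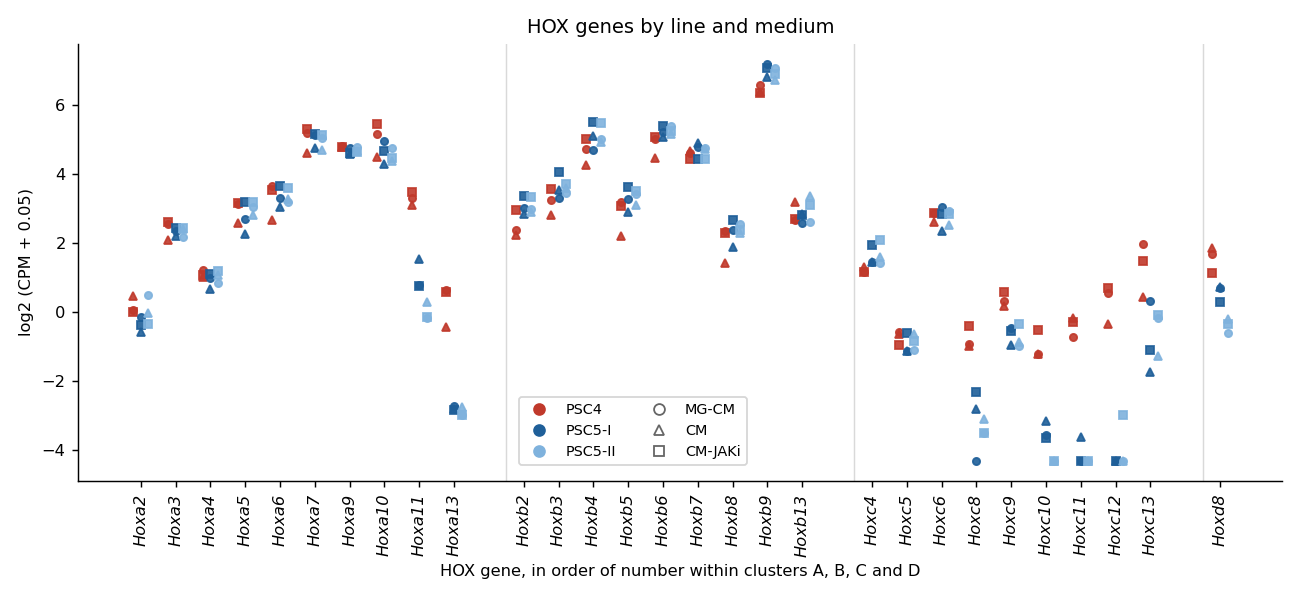
Level of HOX genes tested, from Hoxa2 on, as log2 of CPM plus 0.05, in each library, in order of gene number within the A, B, C and D clusters. Culture is shown by colour and by position within a gene, medium by shape. The 3 PSC4 points lie above the 6 PSC5 points for Hoxa11, Hoxa13 and the genes from Hoxc8 to Hoxc13, and their range overlaps that of the PSC5 points for Hoxa2 to Hoxa10 and for Hoxc5 and Hoxc6.

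To show what lies at the start of genes that separate the lines, promoter windows are printed for 3 that were higher in PSC4 (Hoxa11 and Hoxa13, which lie in 1 cluster, and Nkx2-3) and 2 that were lower (Pcdh10 and Chodl). Each runs 5′ to 3′ along the gene from 250 bases before its start to 50 after it (RefSeq, GRCm38.p6), in lower case with every CG dinucleotide, the target of DNA methylation, in capitals. Positions are chr6:52245761-52246060 and chr6:52260831-52261130 on the minus strand, and chr19:43612075-43612374, chr3:45378148-45378447 and chr16:78930698-78930997 on the plus strand.
Hoxa11: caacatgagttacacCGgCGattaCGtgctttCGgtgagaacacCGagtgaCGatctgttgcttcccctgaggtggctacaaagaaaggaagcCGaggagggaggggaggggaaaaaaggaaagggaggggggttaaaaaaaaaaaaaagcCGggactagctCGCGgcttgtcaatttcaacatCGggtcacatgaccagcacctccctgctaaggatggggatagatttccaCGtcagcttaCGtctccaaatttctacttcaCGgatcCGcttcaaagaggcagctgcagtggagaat
Hoxa13: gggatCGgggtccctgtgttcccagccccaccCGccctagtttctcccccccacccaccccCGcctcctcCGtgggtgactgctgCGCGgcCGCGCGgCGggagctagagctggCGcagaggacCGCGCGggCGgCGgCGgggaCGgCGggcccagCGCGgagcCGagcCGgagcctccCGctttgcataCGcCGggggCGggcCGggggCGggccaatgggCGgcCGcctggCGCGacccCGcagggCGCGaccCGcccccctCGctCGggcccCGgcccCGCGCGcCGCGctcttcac
Nkx2-3: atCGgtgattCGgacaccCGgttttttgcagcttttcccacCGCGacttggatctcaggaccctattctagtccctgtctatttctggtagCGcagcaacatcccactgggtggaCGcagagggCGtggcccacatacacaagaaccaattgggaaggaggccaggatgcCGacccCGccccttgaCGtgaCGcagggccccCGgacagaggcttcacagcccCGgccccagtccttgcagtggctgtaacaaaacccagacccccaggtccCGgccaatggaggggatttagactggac
Pcdh10: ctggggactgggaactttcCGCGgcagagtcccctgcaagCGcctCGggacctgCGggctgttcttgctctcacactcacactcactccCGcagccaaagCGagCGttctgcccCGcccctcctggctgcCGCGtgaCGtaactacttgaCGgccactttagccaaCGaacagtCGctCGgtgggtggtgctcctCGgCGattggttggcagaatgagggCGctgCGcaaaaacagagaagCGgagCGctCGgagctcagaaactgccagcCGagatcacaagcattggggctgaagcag
Chodl: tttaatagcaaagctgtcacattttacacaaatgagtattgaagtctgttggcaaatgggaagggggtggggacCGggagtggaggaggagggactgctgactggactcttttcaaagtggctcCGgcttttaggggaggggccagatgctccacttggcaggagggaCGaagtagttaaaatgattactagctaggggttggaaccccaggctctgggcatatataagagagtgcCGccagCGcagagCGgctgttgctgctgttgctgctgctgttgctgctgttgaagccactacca
CG occurs 15 times in the Hoxa11 window, 45 in Hoxa13, 15 in Nkx2-3, 24 in Pcdh10 and 6 in Chodl. CG reads the same on both strands, so 1 search covers both. Of all promoters in the table, 35.2% hold at least 15, 1.88% at least 45, 20% at least 24 and 56.4% at least 6. Among the autosomal genes tested that had a window, the median was 21, against 11 for the line-identity genes higher in PSC4 (43 with a window) and 14.5 for those lower (64 with a window). DNA methylation was not measured in these samples.

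Regional factors outside the HOX clusters were called higher in PSC4 more often than lower. Of 69 tested, 23 were higher and 7 lower in PSC4 (43.5% called, against 20.8%), with a median log2 difference of 0.23, against -0.00587 over all autosomal genes. The identity genes among them were Nkx2-3, Gata4, Alx1, Pax9, Foxd1, En1 and Foxf1a on the PSC4 side and Sox11 on the PSC5 side. Foxf1a, a forkhead factor of visceral mesenchyme, had 6.96 CPM in PSC4 against 2.13 and 1.36 in PSC5 in MG-CM, 6.78 against 2.32 and 1.87 in CM, and 6.77 against 2.48 and 2.17 in CM-JAKi, without overlap between the lines. En1, the engrailed homeobox gene, had 13.6, 11.9 and 14.1 CPM in PSC4 (MG-CM, CM and CM-JAKi), 4.3, 4.25 and 3.68 CPM in PSC5-I and 3.87, 4.07 and 2.67 CPM in PSC5-II, without overlap between the lines. The 2 genes differed by similar amounts (1.74 ± 0.17 and 1.8 ± 0.14, adjusted p = 0.0012 and 0.00066). Pax9 and Foxd1, a paired box gene and a forkhead gene of stromal progenitors, differed by 2.41 ± 0.22 and 2.17 ± 0.23 (adjusted p = 0.00087 and 0.0016). Irx2, Msx1, Tbx15 and Tbx18 were higher in PSC4 by 1.42, 1.41, 0.56 and 0.58.

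Some factors of this kind were higher in PSC5. Sox11, an SRY-box factor of embryonic progenitors, had 2.85 CPM in PSC4 against 6.39 and 9.32 in PSC5 in MG-CM, 2.23 against 5.61 and 8.4 in CM, and 1.66 against 7.06 and 6.69 in CM-JAKi, with every PSC4 value below every PSC5 value (log2 difference -1.71 ± 0.21 SE, adjusted p = 0.0025). Gata6, another GATA factor of visceral mesenchyme, had 12.4 to 18.8 CPM in PSC4 and 18.5 to 40.1 CPM in PSC5 (log2 difference -0.68 ± 0.11 SE, adjusted p = 0.0068). The 2 GATA genes differed in opposite directions. Hic1, Irx1, Nkx3-2, Osr1 and Dlx1 were also lower in PSC4 (-1.26, -0.76, -1.28, -0.41 and -0.35), with the calls of Nkx3-2 and Dlx1 lost in 8 and 9 of 20 alternative settings.

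Line-identity genes best known from fetal or neural tissue lay on both sides. They were picked out after their values were seen, and no such list was tested. Higher in PSC4 were Ntrk3, the receptor of neurotrophin 3 (2.12 ± 0.31), Rbfox1, a neuronal splicing factor (2.04 ± 0.38), Rtn4r, the Nogo receptor (1.85 ± 0.23), and its partner Lingo1 (1.73 ± 0.24). Those given next were lower. Elavl2, a neuronal RNA-binding protein, had 0.103, 0.104 and 0.339 CPM in PSC4 (MG-CM, CM and CM-JAKi), 14.4, 5.42 and 14.4 CPM in PSC5-I and 12, 4.13 and 12 CPM in PSC5-II, with every PSC4 value below every PSC5 value, a log2 difference of -5.78 ± 0.3 (SE, adjusted p = 0.0001). Igf2bp1, a fetal RNA-binding protein that binds Igf2 mRNA, had 11.9 CPM in PSC4 against 34.1 and 44 in PSC5 in MG-CM, 12.7 against 45.2 and 52.3 in CM, and 12.5 against 42.3 and 49 in CM-JAKi, without overlap between the lines (log2 difference -1.84 ± 0.11 SE, adjusted p = 0.00019). Lin28b, which blocks let-7 maturation in early embryos, had 3 counts in PSC4 and 161 in PSC5, a ratio per depth of 27.3 in favour of PSC5 (95% counting interval 9.16 to 134). Its call was lost in 6 of 18 alternative settings. Gria4, an AMPA receptor subunit, had 3.12, 6.99 and 13.1 CPM in PSC4 (MG-CM, CM and CM-JAKi), 11, 45.7 and 67.8 CPM in PSC5-I and 12.8, 35 and 73.4 CPM in PSC5-II, with PSC4 the lowest in each medium (log2 difference -2.33 ± 0.14 SE, adjusted p = 0.00019). Npy1r, a receptor for neuropeptide Y, was also lower in PSC4 (log2 difference -2.38 ± 0.21 SE, adjusted p = 0.00092). Schwann and neural markers as a list had no call among 6 tested, with summed levels of 42.7 to 74.2 CPM in PSC4 and 46.5 to 88.7 CPM in PSC5.

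Imprinted genes, which are expressed from 1 parental copy, were called in 8 of 33 cases (24.2%, near the 20.8% of all genes), 7 of them lower in PSC4. Dlk1, a membrane protein of the Notch ligand type, had 24.7 CPM in PSC4 against 80.5 and 52.4 in PSC5 in MG-CM, 3.89 against 16.9 and 9.52 in CM, and 12.2 against 81.3 and 36.7 in CM-JAKi, with PSC4 the lowest in each medium, a log2 difference of -1.81 ± 0.34 (SE, adjusted p = 0.012). Rtl1, its neighbour in the same imprinted region of chromosome 12, was not in the list and was named after its values were seen. It differed by -2.38 ± 0.34 (SE, adjusted p = 0.0039). Rtl1, like Dlk1, was lower in PSC4 than in both PSC5 libraries of each medium. Zdbf2, on chromosome 1, had 13 counts in PSC4 and 410 in PSC5 (log2 difference -3.96 ± 0.33 SE, adjusted p = 0.00074). Grb10, an adaptor that damps insulin and growth factor signals, had 210.2, 179 and 165 CPM in PSC4 (MG-CM, CM and CM-JAKi), 394, 313 and 343 CPM in PSC5-I and 438, 362 and 421 CPM in PSC5-II, with every PSC4 value below every PSC5 value (log2 difference -1.04 ± 0.1 SE, adjusted p = 0.0012). Ndn, Snrpn, Nnat and Ppp1r9a were also lower, at -0.84, -1.07, -1.19 and -1.06. Igf2, a fetal growth factor, had 9.74 CPM in PSC4 against 1.9 and 2.2 in PSC5 in MG-CM, 0.174 against 0.496 and 0.525 in CM, and 3.48 against 0.658 and 0.619 in CM-JAKi and was not called over all media (1.68 ± 0.51, adjusted p = 0.053). Without CM replicate 1 the count was 4 higher and 9 lower.

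Adhesion molecules were called in both directions. Of 28 cadherins and related molecules tested, 4 were higher and 7 lower in PSC4 (39.3% called, against 20.8% of all genes). Of the lower ones, 4 were line-identity genes. Ctnna2 and Chodl, given below, are not in this list and stand outside these counts. Pcdh10, a protocadherin of the developing brain, had 3.74, 1.18 and 2.22 CPM in PSC4 (MG-CM, CM and CM-JAKi), 42.1, 32.4 and 91.1 CPM in PSC5-I and 40.5, 29.3 and 132 CPM in PSC5-II, without overlap between the lines, a difference of -4.53 ± 0.4 (SE, adjusted p = 0.0011). Pcdh17 and Pcdh20 followed with -3.46 ± 0.7 and -2.18 ± 0.25 (adjusted p = 0.014 and 0.0021), and Cdh2, N-cadherin, with -1.07 ± 0.17 (SE, adjusted p = 0.0057). Ctnna2, the neuronal alpha catenin, had 0.452 to 1.82 CPM in PSC4 and 8.37 to 15.9 CPM in PSC5 (log2 difference -3.49 ± 0.21 SE, adjusted p = 0.00019). Chodl, a membrane protein with a C-type lectin domain, had 1.2 CPM in PSC4 against 20.2 and 24.8 in PSC5 in MG-CM, 0.452 against 35.5 and 17 in CM, and 1.82 against 51.3 and 58.8 in CM-JAKi, with every PSC4 value below every PSC5 value (log2 difference -4.89 ± 0.37 SE, adjusted p = 0.00066). On the PSC4 side were Icam1, a ligand of leukocyte integrins (log2 difference 1.09 ± 0.09 SE, adjusted p = 0.00079), and Cdh13 (log2 difference 1.5 ± 0.22 SE, adjusted p = 0.0048). All 8 called integrin and laminin genes of 28 tested were higher in PSC4 (28.6%, against 20.8% of all genes). Among them were Itga9 (2.13 ± 0.23) and Itgb5 (0.61 ± 0.1).

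Contractile genes were lower in PSC4 in all but 1 of the called cases. Of 21 genes tested, 9 were lower and 1 higher (47.6% called, against 20.8% of all genes), with a median log2 difference of -0.816. Actg2, Tagln, Cnn1 and Des were line-identity genes. Tagln, the actin-binding protein transgelin, had 102, 6.81 and 100.3 CPM in PSC4 (MG-CM, CM and CM-JAKi), 289.7, 60.8 and 230.1 CPM in PSC5-I and 277, 80.5 and 304 CPM in PSC5-II, with PSC4 the lowest in each medium (log2 difference -1.93 ± 0.36 SE, adjusted p = 0.01). Cnn1, calponin, had 14.4 CPM in PSC4 against 33.3 and 40.2 in PSC5 in MG-CM, 2.75 against 8.74 and 11.5 in CM, and 8.5 against 23.1 and 24.8 in CM-JAKi, with PSC4 the lowest in each medium (log2 difference -1.54 ± 0.14 SE, adjusted p = 0.00087). Acta2, smooth muscle actin, had 265, 8.73 and 253 CPM in PSC4 (MG-CM, CM and CM-JAKi), 609.7, 103 and 383 CPM in PSC5-I and 664, 104 and 579.7 CPM in PSC5-II, with PSC4 the lowest in each medium. The margin was widest in CM, and the difference of -1.7 ± 0.45 (SE, adjusted p = 0.034) lost its call in 9 of 20 alternative settings. Without CM replicate 1 the list still had 9 lower and 1 higher, with a median of -0.541. The exception was Mylk, myosin light chain kinase, with 27.6 CPM in PSC4 against 10.8 and 7.65 in PSC5 in MG-CM, 7.09 against 4.09 and 3.51 in CM, and 49.6 against 8.11 and 7.62 in CM-JAKi, with PSC4 the highest in each medium, a difference of 1.79 ± 0.28 (SE, adjusted p = 0.0056). Mylk lies on chromosome 16, whose genes had a median difference of 0.227. Nes, nestin, a filament protein of stellate cells, was lower (log2 difference -0.94 ± 0.12 SE, adjusted p = 0.0032). Of 28 fibroblast identity genes 5 were higher and 2 lower in PSC4 (25%, near the 20.8% of all genes). Of 18 stellate and quiescence genes, 3 were higher and 4 lower (38.9%). Col1a1 and Thy1 were not called (-0.13 ± 0.13 and 0.2 ± 0.26, adjusted p = 0.51 and 0.62).

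Matrix genes were spread over both lines. Collagens numbered 10 higher and 5 lower in PSC4 of 35 tested (42.9% called, against 20.8% of all genes). Matrix glycoproteins and proteoglycans numbered 16 higher and 7 lower of 58 (39.7%). Lum, lumican, a collagen-binding proteoglycan, had 14.8, 110.3 and 33.3 CPM in PSC4 (MG-CM, CM and CM-JAKi), 5.31, 5.48 and 3.62 CPM in PSC5-I and 6.59, 13.9 and 7.93 CPM in PSC5-II, with every PSC4 value above every PSC5 value (log2 difference 2.57 ± 0.44 SE, adjusted p = 0.0082). Postn, periostin, was higher in PSC4 by 1.51 ± 0.27 (SE, adjusted p = 0.0092) and Spp1, osteopontin, by 1.37 ± 0.26 (SE, adjusted p = 0.011). Col27a1 and Col12a1 were higher by 1.42 ± 0.15 and 0.77 ± 0.12, and Col1a2 lower at -0.41 ± 0.1 (adjusted p = 0.0015, 0.0047 and 0.026). The call of Col1a2 was lost in 8 of 20 alternative settings. The largest difference of the group was in Fbn2, fibrillin 2, with 0.48 CPM in PSC4 against 11.1 and 11.8 in PSC5 in MG-CM, 0.0695 against 1.24 and 1.08 in CM, and 0.277 against 6.73 and 8.43 in CM-JAKi, without overlap between the lines (log2 difference -4.57 ± 0.21 SE, adjusted p = 5.2e-05). Among matrix proteases and inhibitors, 8 were higher and 7 lower of 46 (32.6%, against 20.8% of all genes). Mmp13, a collagenase, had 3.29, 167 and 11.6 CPM in PSC4 (MG-CM, CM and CM-JAKi), 0.474, 32.8 and 0.868 CPM in PSC5-I and 1.02, 32.7 and 1.04 CPM in PSC5-II, with PSC4 the highest in each medium (log2 difference 2.69 ± 0.24 SE, adjusted p = 0.0011). In all 3 cultures Mmp13 was highest in CM. Mmp2, gelatinase A, differed by 1.71 ± 0.22 (SE, adjusted p = 0.0036), while Adamtsl1, a secreted protein related to the ADAMTS proteases, was lower (log2 difference -1.95 ± 0.2 SE, adjusted p = 0.0013).

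**Figure D3:**
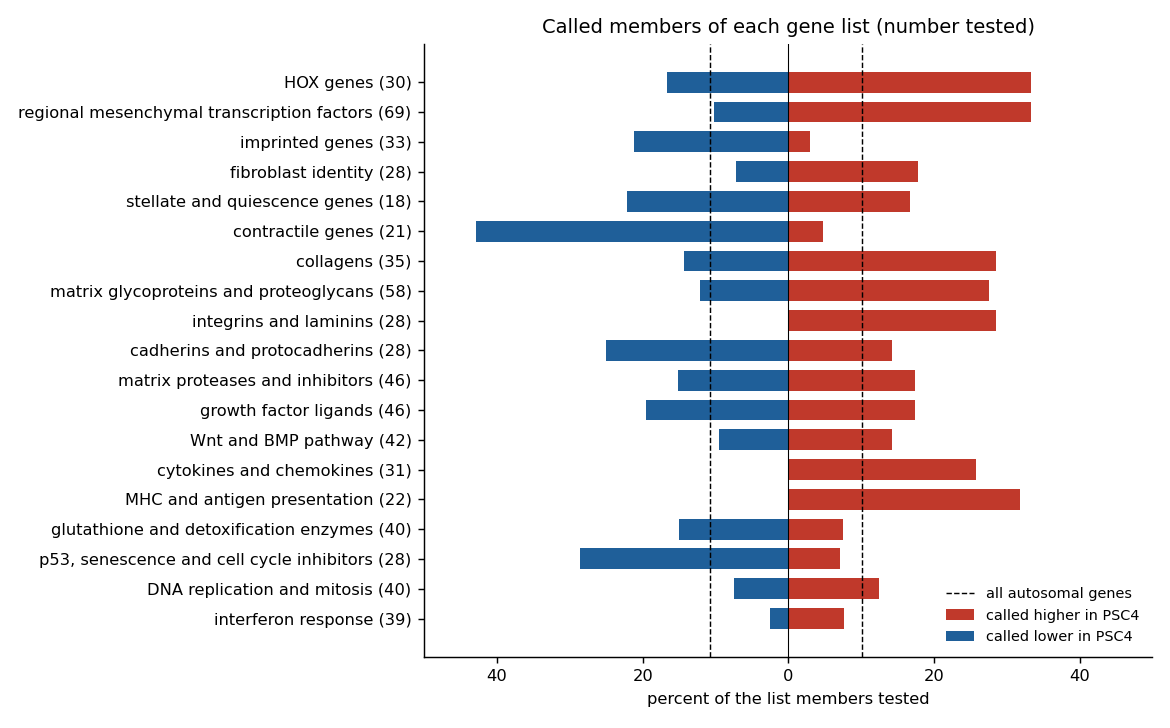
Percent of tested members of 19 gene lists that were called higher (red, to the right) or lower (blue, to the left) in PSC4 over all media, with the number tested in brackets. Dashed lines mark all autosomal genes, 10.1% higher and 10.7% lower. The contractile list reaches furthest to the left, with 9 of 21 genes lower, and the HOX genes and regional factors furthest to the right.

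Growth factors were called in both directions. Mdk, midkine, a heparin-binding growth factor, had 1.3 CPM in PSC4 against 22.6 and 15 in PSC5 in MG-CM, 0.834 against 13.7 and 10.7 in CM, and 1.88 against 43.2 and 43.9 in CM-JAKi, with every PSC4 value below every PSC5 value (log2 difference -4.13 ± 0.22 SE, adjusted p = 0.00012). Its relative Ptn, pleiotrophin, was also lower in PSC4 (log2 difference -1.45 ± 0.21 SE, adjusted p = 0.0043). Of 46 growth factors and their binding proteins tested, 8 were higher and 9 lower in PSC4 (37.0%, against 20.8% of all genes). Igfbp4, which binds insulin-like growth factors, had 431, 261 and 385 CPM in PSC4 (MG-CM, CM and CM-JAKi), 78, 98.3 and 95.2 CPM in PSC5-I and 128, 169 and 68.6 CPM in PSC5-II, with every PSC4 value above every PSC5 value (log2 difference 1.79 ± 0.28 SE, adjusted p = 0.0064).

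In the BMP pathway, ligands differed in opposite directions. Bmp4, a ligand, had 10.8 CPM in PSC4 against 2.27 and 1.67 in PSC5 in MG-CM, 0.765 against 0.155 and 0.0656 in CM, and 26.5 against 1.85 and 1.62 in CM-JAKi, with PSC4 the highest in each medium (log2 difference 3.17 ± 0.29 SE, adjusted p = 0.00093). Bmp3, a ligand that opposes other BMPs, was lower in PSC4 (log2 difference -2.33 ± 0.34 SE, adjusted p = 0.0044). Dkk1, an inhibitor of Wnt signals, had 78 counts in PSC4 and 15 in PSC5 (log2 difference 3.38 ± 0.37 SE, adjusted p = 0.0018). The whole Wnt and BMP list had 6 higher and 4 lower of 42 tested (23.8%, near the 20.8% of all genes). Gas6, the ligand of the TAM receptors, had 237, 9.28 and 143 CPM in PSC4 (MG-CM, CM and CM-JAKi), 31.3, 2.39 and 14.8 CPM in PSC5-I and 12.7, 2.76 and 9.24 CPM in PSC5-II, with PSC4 the highest in each medium (log2 difference 3.1 ± 0.36 SE, adjusted p = 0.0026).

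In the cytokine and antigen presentation lists every called gene was higher in PSC4. Of 31 cytokines, chemokines and related genes tested, 8 were higher and none lower (25.8%, median 0.70), near the 20.8% of all genes. Of 22 genes of the MHC and antigen presentation, 7 were higher and none lower (31.8%). Over all genes, 10.1% were higher and 10.7% lower. Hp, Slpi and C2, given below, are in neither list and stand outside these counts. Hp, haptoglobin, an acute phase protein, had 122 CPM in PSC4 against 18.6 and 40.1 in PSC5 in MG-CM, 3613 against 147 and 486 in CM, and 216 against 22.6 and 81.1 in CM-JAKi, with PSC4 the highest in each medium (log2 difference 2.6 ± 0.54 SE, adjusted p = 0.015). The call of Hp was lost in 3 of 20 alternative settings, among them the one without CM replicate 1. Ccl8, a chemokine for monocytes, had 3.6, 27.3 and 1.6 CPM in PSC4 (MG-CM, CM and CM-JAKi), 0.778, 5.17 and 0.0898 CPM in PSC5-I and 1.21, 4.23 and 0.232 CPM in PSC5-II, with PSC4 the highest in each medium (log2 difference 2.46 ± 0.26 SE, adjusted p = 0.0015). Slpi, a protease inhibitor of inflamed tissue, and C2, a complement protease, differed by 3.34 ± 0.4 and 2.52 ± 0.31 (adjusted p = 0.0026 and 0.0028). H2-D1 and H2-K1, MHC class I heavy chains, differed by 0.65 ± 0.13 and 0.56 ± 0.13 (adjusted p = 0.013 and 0.019). Il6, Lif and Cxcl1, cytokines of inflammatory fibroblasts, had no call (1.67 ± 0.55, 0.97 ± 0.42 and 0.16 ± 0.4). Il6 stood at 2.61 CPM in PSC4 against 1.66 and 2.62 in PSC5 in MG-CM, 28.3 against 4.25 and 16.9 in CM, and 9.27 against 0.927 and 1.31 in CM-JAKi, and the PSC4 value was the highest in CM and CM-JAKi only. Without CM replicate 1, 5 cytokine genes were called higher. Leukocyte markers summed to 35.6 to 119 CPM in PSC4 and 19.1 to 55.1 CPM in PSC5, the highest being PSC4 in CM, with 1 of 5 called (Cd14); their part in these counts was not tested. Glutathione and detoxification enzymes had 3 higher and 6 lower of 40 (22.5%). Interferon response genes had 3 higher and 1 lower of 39 (10.3%), or 6 and 0 without CM replicate 1.

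Genes of some chromosomes were shifted together. The genes of chromosome 11 had a median log2 difference of -0.253 relative to all autosomal genes, and those of chromosome 16 a median of 0.227. Each of the 6 pairings of a PSC4 library with a PSC5 library of the same medium gave nearly the same value, from -0.258 to -0.228 for chromosome 11 and from 0.190 to 0.255 for chromosome 16. On chromosome 11, 432 of 1105 genes were called lower in PSC4 (39.1%) and 22 higher (1.99%), and on chromosome 16, 135 of 416 were called higher (32.5%) and 10 lower (2.40%). Chromosome 11 held 8.52% of the genes tested and 31.1% of all genes called lower. With the genes of a chromosome placed in order and cut into 6 equal runs, the medians ranged from -0.279 to -0.224 along chromosome 11 and from 0.151 to 0.268 along chromosome 16, so no run lacked the shift. Smaller shifts with the same sign in all 6 pairings were seen upwards on chromosomes 1 (0.157), 8 (0.137), 19 (0.123), 12 (0.100), 9 (0.0847) and 5 (0.0708). They were seen downwards on chromosomes 18 (-0.132), 17 (-0.101), 15 (-0.0832), 3 (-0.066), 7 (-0.0596) and 10 (-0.0525). Between PSC5-I and PSC5-II no autosome moved by more than 0.0485 in any medium. Chromosomes come from RefSeq (GRCm38.p6) by gene name, and DNA copy number was not measured.

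**Figure D4:**
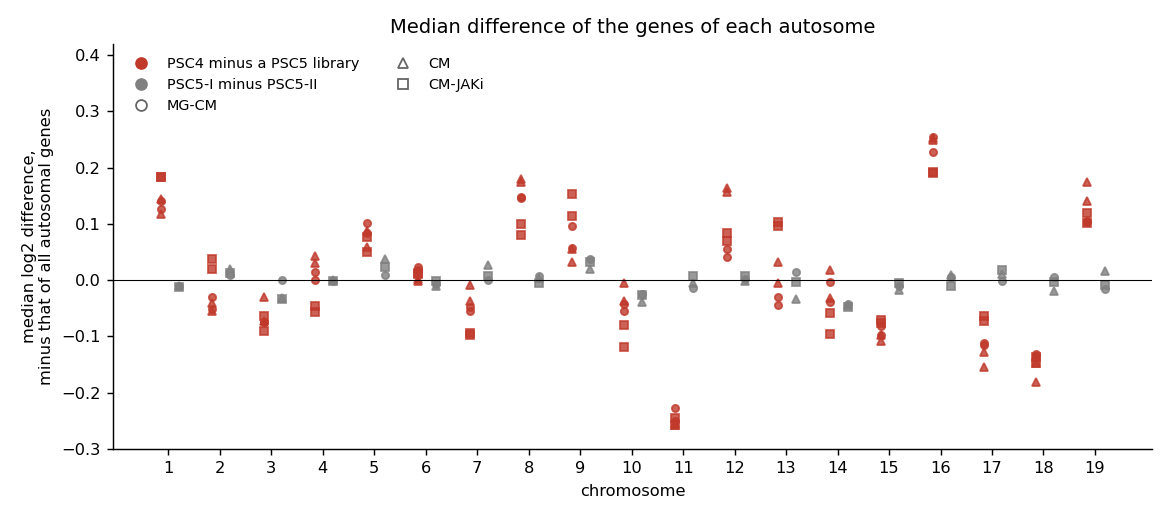
Median log2 difference of the genes of each autosome, minus the median of all autosomal genes, for the 6 pairings of a PSC4 library with a PSC5 library of the same medium (red) and for PSC5-I minus PSC5-II in the 3 media (grey). Chromosome 11 lies at -0.258 to -0.228 and chromosome 16 at 0.190 to 0.255 in red, while all grey points lie within 0.0485 of 0.

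In a list of p53 targets, senescence genes and cell cycle inhibitors, most called genes were lower in PSC4. The p53 protein stops the cell cycle after DNA damage. Of 28 tested, 8 were lower and 2 higher (35.7%, against 20.8% of all genes, median -0.331). Ccng1, a p53 target that lies on chromosome 11, had 136, 60.3 and 181 CPM in PSC4 (MG-CM, CM and CM-JAKi), 405, 139.9 and 492 CPM in PSC5-I and 292, 144 and 581 CPM in PSC5-II, with PSC4 the lowest in each medium (log2 difference -1.39 ± 0.12 SE, adjusted p = 0.00087). Trp53 itself, also on chromosome 11, had 132 CPM in PSC4 against 175 and 183 in PSC5 in MG-CM, 156 against 181 and 173 in CM, and 126 against 165 and 193 in CM-JAKi, with every PSC4 value below every PSC5 value, a difference of -0.37 ± 0.08 (SE, adjusted p = 0.016) beside the chromosome's median of -0.253. Mdm2, which degrades p53, and Bax, which promotes cell death, lie on chromosomes 10 and 7 and differed by -0.49 ± 0.11 and -0.31 ± 0.09 (adjusted p = 0.021 and 0.037), and the call of Bax was lost in 10 of 20 alternative settings. Cdkn2a was not called (-0.17 ± 0.07). Ccnd1, cyclin D1, had 49.9, 11.6 and 55.4 CPM in PSC4 (MG-CM, CM and CM-JAKi), 119.5, 54.9 and 122 CPM in PSC5-I and 149, 91.9 and 220.0 CPM in PSC5-II, with PSC4 the lowest in each medium (log2 difference -1.85 ± 0.31 SE, adjusted p = 0.0081), and the DNA replication and mitosis list as a whole had 5 higher and 3 lower of 40 (20%).

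The response of the lines to CM differed in a small set of genes. The difference between the lines was not the same in CM as in MG-CM for 29 genes (0.223%; 26 of them more negative in CM), and not the same in CM-JAKi as in CM for 48 (0.37%; 45 more positive in CM-JAKi). DESeq2 called 415 (144 more positive and 271 more negative) and 345 (231 and 114). Adamts5, a protease that cuts aggrecan, had 321 CPM in PSC4 against 309 and 328 in PSC5 in MG-CM, 16.6 against 151 and 144 in CM, and 235 against 228 and 229 in CM-JAKi. PSC4 lay close to PSC5 in MG-CM and CM-JAKi and far below it in CM. The line difference in CM minus that in MG-CM was -3.16 ± 0.14 (SE, adjusted p = 0.0015). Prss23, a serine protease, had 67, 2.82 and 68.1 CPM in PSC4 (MG-CM, CM and CM-JAKi), 119, 36.4 and 100.4 CPM in PSC5-I and 102, 39.9 and 108 CPM in PSC5-II, with PSC4 the lowest in each medium, with -3.04 ± 0.2 (SE, adjusted p = 0.006) for the same contrast. Myl9, a myosin light chain, had 128 CPM in PSC4 against 231 and 234 in PSC5 in MG-CM, 7.54 against 63.8 and 72.8 in CM, and 125 against 179 and 187 in CM-JAKi, with PSC4 the lowest in each medium, and this contrast was -2.31 ± 0.16 (SE, adjusted p = 0.006). For Sort1, a sorting receptor, Irs1, an insulin receptor substrate, and F3, tissue factor, the contrast was -1.88 ± 0.13, -2.0 ± 0.15 and -1.95 ± 0.16. In CM-JAKi minus CM these 6 genes gave values from 1.85 to 3.19; that contrast shares the CM libraries with the one before it. For Acta2 the CM contrast was -2.3 ± 0.35 (SE, adjusted p = 0.083) and was not called.

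**Figure D5:**
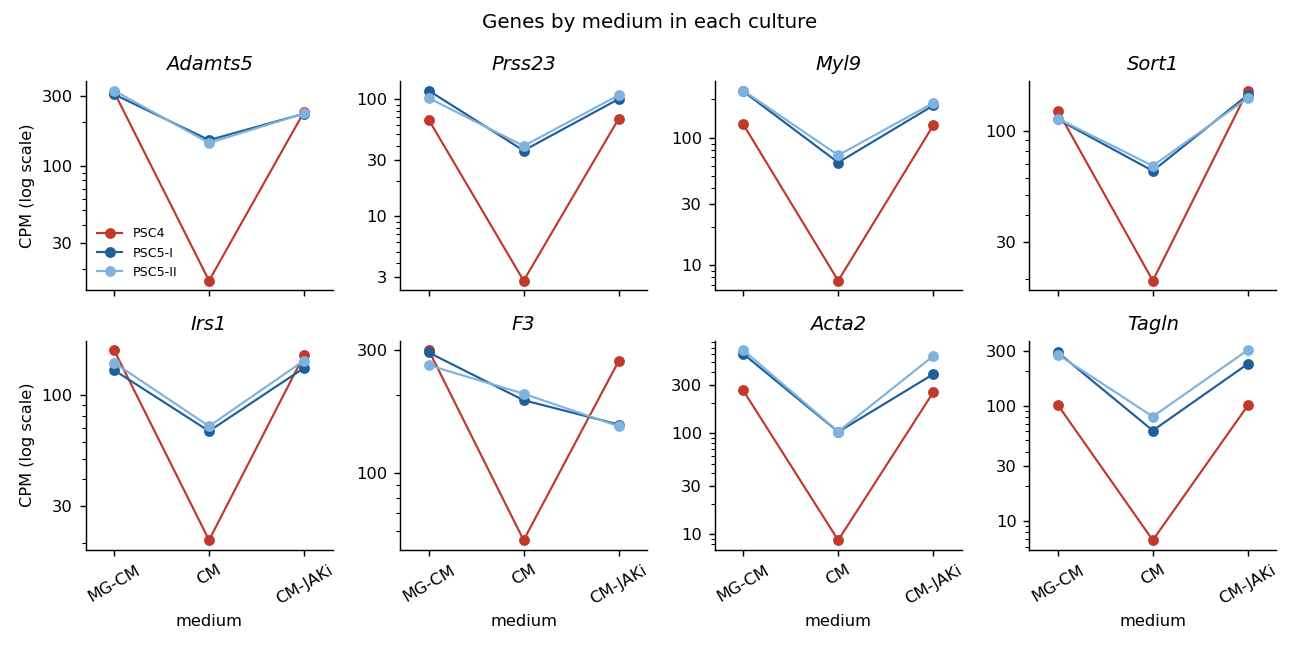
Level of 8 genes in CPM on a log axis in MG-CM, CM and CM-JAKi, with 1 line for each culture. For Adamts5, Prss23, Myl9, Sort1, Irs1 and F3 the PSC4 value in CM falls far below both PSC5 cultures, while in MG-CM and CM-JAKi the cultures lie closer together, with PSC4 the highest for F3 in CM-JAKi. Acta2 and Tagln are lower in PSC4 in all 3 media.

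All of these contrasts rest on 1 PSC4 library in each medium and on the CM source given to it, so the line and the batch of medium cannot be told apart in them. The count in CM against MG-CM was 1 without MG-CM replicate 2, 1 without MG-CM replicate 3, 98 without CM replicate 2 and 133 without CM replicate 3. The count in CM-JAKi against CM was 108 without CM replicate 2, 30 without CM-JAKi replicate 2 and 22 without CM-JAKi replicate 3.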

How the data were processed

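RNA was measured in 9 libraries of mouse stellate cells: rRNA-depleted total RNA, prepared with a stranded kit per the labels' protocols. The authors deposited 1 table of estimated counts per gene symbol (expected counts, not normalized). Per the submitters' processing notes the tools were DESeq2, RSEM 1.2.29 and STAR 2.5.1b and the builds mm9 and NCBIM37, with no role given for any. RSEM shares out reads that fit several genes, so near-identical genes (HOX, MHC) are uncertain, and whether counting used strand is not given in the sources used here.

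Counts were rounded and filtered with filterByExpr (minimum count 10, minimum total 15), which kept 13613 of 17156 genes. They were scaled by TMM and fitted with edgeR 4.0.16 in R 4.3.3 (quasi-likelihood F-test, robust, medium and line as terms). Single media and interactions came from a fit with 1 term for each of the 6 combinations of line and medium. P-values were Benjamini-Hochberg adjusted over all genes kept and called at 0.05. Every SE is the log2 difference divided by the square root of F. CPM are counts scaled to TMM-adjusted library size. Chromosomes came by symbol (14984) or synonym (1771) from RefSeq GRCm38.p6, and 401 genes found none. On simulated counts for 13533 genes, the line test recovered 99% of genes changed by 1 on the log2 scale and 100% of those changed by 2, and called 15 of 13333 unchanged genes. Of these changed genes, 5% and 96% met the line-identity rule. The libraries were simulated with the same spread for every gene and no difference between cultures, and only genes with high counts were changed. The simulation therefore cannot give the error rate for a line with 1 culture, or the power for genes with few counts. Alternatives used DESeq2 1.42.0 and limma 3.58.1.

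The labels call the replicates biological. Replicate 1 is PSC4 and replicates 2 and 3 are PSC5, so the number is nested in the line and pairs no PSC4 library with a PSC5 library, and p-values measure only the spread between these libraries. Members, gene lists and the choice of alternatives were made with earlier results of these data known. Named genes were the 15 highest and 15 lowest line-identity genes (mean log2 CPM 2 or more), up to 4 called members of each list by p, the 8 interaction genes of smallest p, and a set of fixed stellate, cytokine and HOX genes. Some of these are given only in counts or are not reported here. The other HOX genes, regional factors, imprinted, fetal and secreted genes were named after their values were seen.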

Additional observations from a re-analysis of the deposited data

Results flagged for a closer look

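For 12 genes named above or by the rule, the difference between PSC4 and PSC5 depended on the medium by the edgeR interaction test. All values are log2 differences with Benjamini-Hochberg adjusted p, and the contrasts of CM with MG-CM and of CM-JAKi with CM share the CM libraries. In each case 1 PSC4 library stands in each medium, so the line and the source of CM cannot be told apart.

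Adamts5, an aggrecan-cutting protease, gave -3.16 in CM minus MG-CM (adjusted p = 0.00146) and 3.19 in CM-JAKi minus CM (adjusted p = 0.00138). Prss23, a serine protease, gave -3.04 in CM minus MG-CM (adjusted p = 0.00604) and 3.14 in CM-JAKi minus CM (adjusted p = 0.00287). Sort1, a sorting receptor, gave -1.88 in CM minus MG-CM (adjusted p = 0.00604) and 1.85 in CM-JAKi minus CM (adjusted p = 0.00448). Cdo1, cysteine dioxygenase, gave -2.62 in CM minus MG-CM (adjusted p = 0.00604) and 2.59 in CM-JAKi minus CM (adjusted p = 0.00448). Myl9, a myosin light chain, gave -2.31 in CM minus MG-CM (adjusted p = 0.00604) and 2.63 in CM-JAKi minus CM (adjusted p = 0.00287). Irs1, an insulin receptor substrate, gave -2.0 in CM minus MG-CM (adjusted p = 0.0071) and 1.89 in CM-JAKi minus CM (adjusted p = 0.00636). F3, tissue factor, gave -1.95 in CM minus MG-CM (adjusted p = 0.00806) and 2.66 in CM-JAKi minus CM (adjusted p = 0.00287). Tubb3, a neuronal tubulin, gave -1.44 in CM minus MG-CM (adjusted p = 0.0154) and 1.49 in CM-JAKi minus CM (adjusted p = 0.00933). Masp1, a protease of the lectin pathway of complement, gave -1.76 in CM minus MG-CM (adjusted p = 0.0189) and 2.26 in CM-JAKi minus CM (adjusted p = 0.00636). In all 9 the PSC4 library in CM was the low one relative to both PSC5 libraries.

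The other 3 passed in 1 contrast. Igf2 gave 3.97 in CM-JAKi minus CM (adjusted p = 0.0404), and Adam23, a line-identity gene lower in PSC4, gave 1.59 (adjusted p = 0.0114). Hic1, a zinc finger repressor of mesenchymal progenitors, gave -1.59 in CM minus MG-CM (adjusted p = 0.043).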

How the results depend on the processing

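The number of autosomal genes that differed between the lines was 2700. It stayed within 1.5 times of that with DESeq2 (3248), library size alone (2480), no filter (2562), a stricter filter (2555), limma voom with duplicateCorrelation (3016), autosomal genes only (2708) and without robust estimation (2707). With the replicate block, which here sets replicate 1 against the mean of replicates 2 and 3, it was 2922. Sums per culture gave 961, and leaving out libraries or cultures gave 379 to 2844. Line-identity genes numbered 154, from 158 to 276 when libraries were left out, 97 with the stricter filter, 2591 with no minimum fold and 29 at 4-fold.

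DESeq2 called 834 genes in MG-CM, 1244 in CM, 1037 in CM-JAKi, 415 and 345 in the interactions of CM with MG-CM and of CM-JAKi with CM, and 90 between PSC5-I and PSC5-II. With no filter the counts were 346 in MG-CM and 68 and 83 in the interactions, and library size alone gave 51 in the first interaction. Leaving out a library gave 0 to 4 in MG-CM, 635 to 822 in CM, 64 to 218 in CM-JAKi, 1 to 133 and 22 to 108 in the interactions, and 0 to 11 between the PSC5 cultures. The cause of these differences was not tested. Of 152 named genes called, 42 were called in all 20 settings and 7 in every one of the fewer settings that tested them, and none changed sign. Of 32 not called, 11 were called in some setting; among these Tubb3, at -0.01, ranged from -0.27 (without CM-JAKi replicate 1) to 0.41 (adjusted p = 0.00523, without CM replicate 1). Under library size alone and the stricter filter, the 19 chromosome medians moved by less than the SD over their 6 library pairings. Genes under about 1 CPM in a line, such as Hoxc8, Hoxc10 to Hoxc12, Lin28b and Zdbf2, are limited by depth.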
